A study of Homo sapiens with 24 samples.

Results

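The comparison is the combination of the drug APR-246 with irradiation against solvent in HCT116 cells that carry wild-type p53. Its members are 4 bulk RNA libraries of the 24 in the series, 2 of the combination group and 2 of the solvent group, taken by the treatment and genotype in their labels, and all 60675 gene ids were read from them. HCT116 is an established human colorectal cancer line, used here as 3 lines labelled p53 wild type (WT below), p53 mutant (Mutant) and p53 null (Null). The culture medium was McCoy 5A with 10% serum in every group. In the combination group 20 uM APR-246 was given before 6 Gy of irradiation, and RNA was collected 72 hours after the exposure. The other WT groups received 20 uM APR-246 alone or 6 Gy alone, again with 2 libraries each. With 1 line for each p53 status, effects of the line and effects of p53 cannot be told apart. The labels do not say whether the 2 libraries of a group came from separate cultures, so p-values measure the spread between libraries of a group, which may be technical. In the main test that spread was estimated over all 12 groups of the 3 lines, not from the 4 libraries compared alone.

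p53 is a transcription factor that is stabilised after DNA breaks and switches on genes for cell cycle arrest, repair and cell death, among them MDM2, whose product marks p53 for destruction. APR-246 is a prodrug whose active form binds cysteines in mutant p53, and also glutathione and thioredoxin reductase. ATF4, a further transcription factor, is translated when amino acids are short or when misfolded or oxidised proteins accumulate, and raises genes for amino acid supply and tRNA charging. Interferon-stimulated genes are antiviral genes that are also induced when fragments of the cell's own DNA or RNA are sensed in the cytoplasm, a known late outcome of irradiation.

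The 4 libraries held 53951565 to 56574625 reads each. Of 9 colorectal epithelial markers, 3 were under 1 CPM (counts per library, scaled to a common total) in all 4 libraries (CDH17, VIL1 and CDX1), while KRT8, KRT18, KRT19, EPCAM, CDH1 and CDX2 were expressed. The summed level of the 9 was 6138 to 11453 CPM in solvent and 11439 to 15937 CPM in the combination. All 18 blood cell markers were under 1 CPM in all 4 libraries, with sums of 1.46 to 2.06 CPM and 2.03 to 3.06 CPM. The 14 fibroblast and endothelial markers summed to 20.5 to 43.8 CPM in solvent and 41.6 to 50.7 CPM in the combination, and 10 of them were under 1 CPM throughout. Libraries of 1 group were not equal in base composition. The slope of log2 level on the GC percent of genes, in log2 units per 100 points of GC percent, was -5.30 and 2.61 in the 2 solvent libraries and -4.61 and -2.11 in the 2 combination libraries. Values from a model that holds this slope as a covariate stand below as "with the GC slope".

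Of 20668 genes tested, 268 were higher and 192 lower in the combination than in solvent (limma on log2 of scaled CPM plus 0.5, Benjamini-Hochberg adjusted p under 0.05). That is 2.23% of all genes, 1.3% called higher and 0.929% called lower, and 2843 genes had an unadjusted p under 0.05. The median log2 difference of all genes was 0.04. The 2 combination libraries lay wholly above or wholly below the 2 solvent libraries in 7786 genes, 37.7% of those tested (25.9% above, 11.8% below). The edgeR quasi-likelihood test on the recovered read counts called 140 higher and 122 lower, of which 255 were among the 460 of limma, and DESeq2 called 459 and 540. Among the 131 called genes under 2 CPM in the higher group edgeR shared 26, against 229 of the 329 called genes above that level. The count was 374 without solvent library 1, 72 without solvent library 2, 174 without combination library 1 and 72 without combination library 2. With the replicate number as a block within each line it was 1276 (681 higher, 3.29%, and 595 lower, 2.88%), and 2313 (11.2%) higher and 2162 (10.5%) lower genes were called with the GC slope. Of the 88 called genes named below, 17 kept their call without each of the 4 libraries in turn, 27 lost it without solvent library 1, 67 without solvent library 2, 54 without combination library 1 and 68 without combination library 2. The 17 are GALNT5, CPA4, IFIT1, IFIT2, IFIT3, KRTAP2-3, ZBED2, THBS1, CEACAM1, SYT8, PLK2, RIMS4, FRMPD2, SPATA18, DYSF, NGEF and ABCG1. Of these 17, RIMS4, FRMPD2 and SPATA18 are low genes, a kind whose calls edgeR shared less often, and their calls are given without a reading. Fitted on the 8 WT libraries alone, limma called 0 genes, with 1877 at an unadjusted p under 0.05. Without TMM scaling the median of all genes moved to 0.19, and 389 genes were higher and 149 lower, 72.3% of the calls in place of 58.3%.

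**Figure D1:**
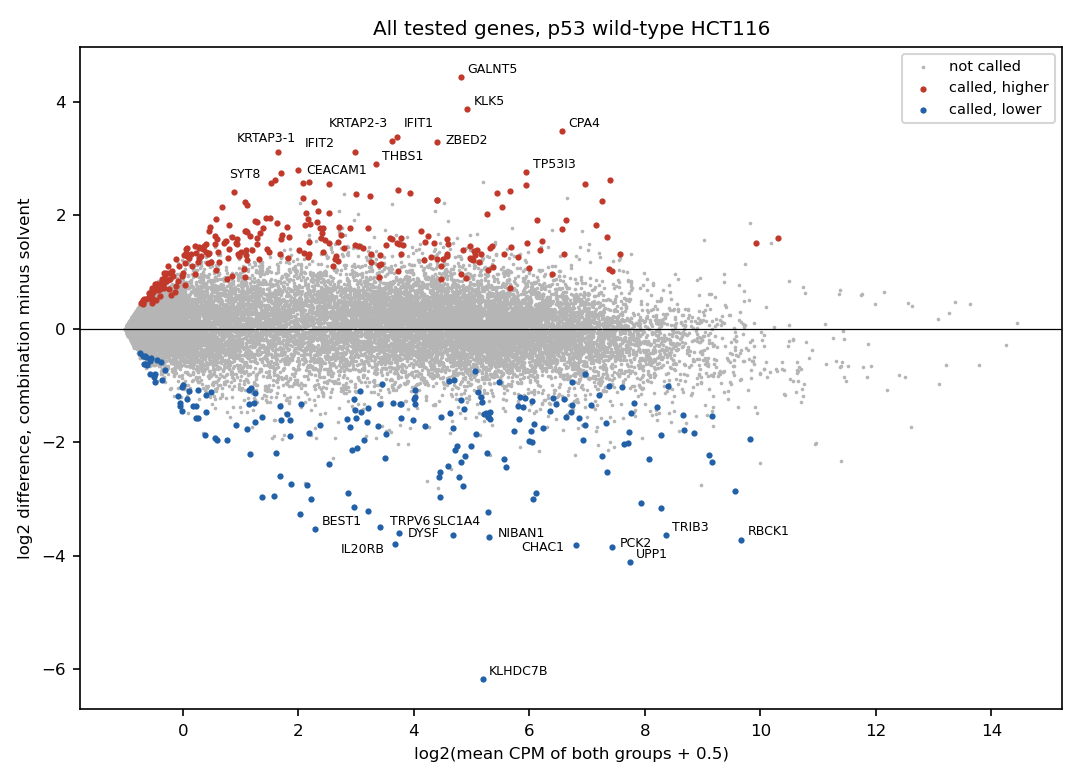
Every tested gene of p53 wild-type HCT116, with log2(mean CPM of both groups + 0.5) on the horizontal axis and the log2 difference, combination minus solvent, on the vertical axis; red and blue points passed the test as higher or lower, and the 12 largest rises and 12 largest falls are named. The falls reach further than the rises, to -6.17 for KLHDC7B against 4.44 for GALNT5.

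Of 17 tested p53 targets for arrest and feedback, 5 rose in the combination and 0 fell. CDKN1A (p21; chr6:36676460-36687339), which blocks cyclin-dependent kinases in damaged cells, was 508 and 582 CPM in the solvent libraries and 2044 and 1930 CPM in the combination, 3.64-fold higher by the means. The groups did not overlap (log2 difference 1.6 ± 0.40 SE, adjusted p = 0.0458). PLK2, a kinase of the p53 response, went from 58.3 and 26.1 CPM to 312 and 274 CPM (2.63 ± 0.33, adjusted p = 0.000517). BTG2, an antiproliferative p53 target, went from 27.1 and 22.1 CPM to 96 and 133 CPM (1.92 ± 0.31, adjusted p = 0.00428). SESN1, a stress-induced brake on mTORC1, and PPM1D, the phosphatase that ends the damage signal, rose by log2 2.40 and 1.44. MDM2 was 49.5 and 15.4 CPM in solvent and 162 and 173 CPM in the combination. Its difference of 2.31 ± 0.58 missed the threshold at an adjusted p that rounds to 0.05, and passed with the GC slope (1.99 ± 0.17, adjusted p = 4.05e-08). With the replicate block within each line its adjusted p was 0.00166. MDM2 lies at chr12:68808176-68850686 and PLK2 at chr5:58453982-58460260 (GRCh38, GENCODE 29).

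The 5 rises and 0 falls among the 17 genes stand against 1.3% and 0.929% of all genes, and the list's median log2 difference was 1.44. With the replicate block within each line 10 rose and 2 fell, and with the GC slope 11 and 2. The number called was 4 and 2 without solvent library 1 or 2, and 3 and 1 without combination library 1 or 2. PLK2 was called in each of these 4 fits, and CDKN1A in none of them, with log2 differences of 1.19 to 2.02. The edgeR test gave CDKN1A an adjusted p of 0.0874.

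Of 17 tested p53 targets for death and survival, 6 rose and 0 fell. TP53I3, an oxidoreductase linked to p53-driven oxidative stress, was 13 and 12.3 CPM in solvent and 84.8 and 135 CPM in the combination (2.77 ± 0.41, adjusted p = 0.00212). FAS, the death receptor of the extrinsic pathway, went from 6.09 and 1.35 CPM to 21.9 and 21.8 CPM (2.45 ± 0.47, adjusted p = 0.0105). SPATA18, a p53 target in mitochondrial quality control, was 0.252 and 0 CPM in solvent and 1.43 and 1.19 CPM in the combination (1.44 ± 0.14, adjusted p = 7.75e-05, edgeR adjusted p = 0.236). At 0 CPM in solvent library 2 it passed the filter on low values only through other groups. It is 1 of the 6 rises, and its call is given without a reading. TRIAP1, which restrains apoptosis, PERP, a desmosomal p53 target, and the decoy receptor TNFRSF10C rose by 1.32, 1.02 and 1.52. TNFRSF10C shares 39.3% of its exonic bases with other annotated genes on its strand and resembles its neighbours, so its count is uncertain.

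The median of these 17 genes was 0.94. The replicate block within each line gave 8 rises and the GC slope 13, with 0 falls in both. Members called numbered 4, 2, 2 and 1 without solvent library 1, solvent library 2, combination library 1 and combination library 2. TP53I3 lost its call without combination library 2 (2.37 at the lowest of the 4 values), and FAS without solvent library 2 or either combination library (1.80 to 3.11). BBC3 and BAX, which act in the mitochondrial route to cell death, did not pass. BBC3 was 69.4 and 155 CPM in solvent and 90.5 and 162 CPM in the combination (-0.04 ± 0.59, adjusted p = 0.988), with overlapping groups. BAX was 53.6 and 59.5 CPM against 156 and 178 CPM (1.29 ± 0.46, adjusted p = 0.188), and passed with the GC slope (1.54 ± 0.14, adjusted p = 1.17e-07). GDF15, a secreted stress cytokine and p53 target, was 1464 and 2545 CPM in solvent and 1585 and 2028 CPM in the combination (-0.37 ± 0.65, adjusted p = 0.894).

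Among p53 targets for repair, metabolism and other roles, 6 of 26 tested genes rose and 0 fell, and the median was 0.90. POLH, a polymerase that copies past damaged bases, went from 20.6 and 12.2 CPM to 57.7 and 44.6 CPM (1.38 ± 0.26, adjusted p = 0.00891). RPS27L, a ribosomal protein paralogue under p53, went from 53.2 and 21.1 CPM to 112 and 102 CPM (1.39 ± 0.29, adjusted p = 0.0159). ACER2, an alkaline ceramidase, CMBL, a hydrolase, ASTN2 and the ubiquitin ligase subunit FBXO22 rose by 2.08, 1.32, 1.31 and 0.73. The block gave 13 rises and 0 falls, the GC slope 19 and 1. The list had 4 calls when solvent library 1 was left out and 0 when solvent library 2 or a combination library was, with medians of 0.74 to 0.98 in those 3 fits.

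**Figure D2:**
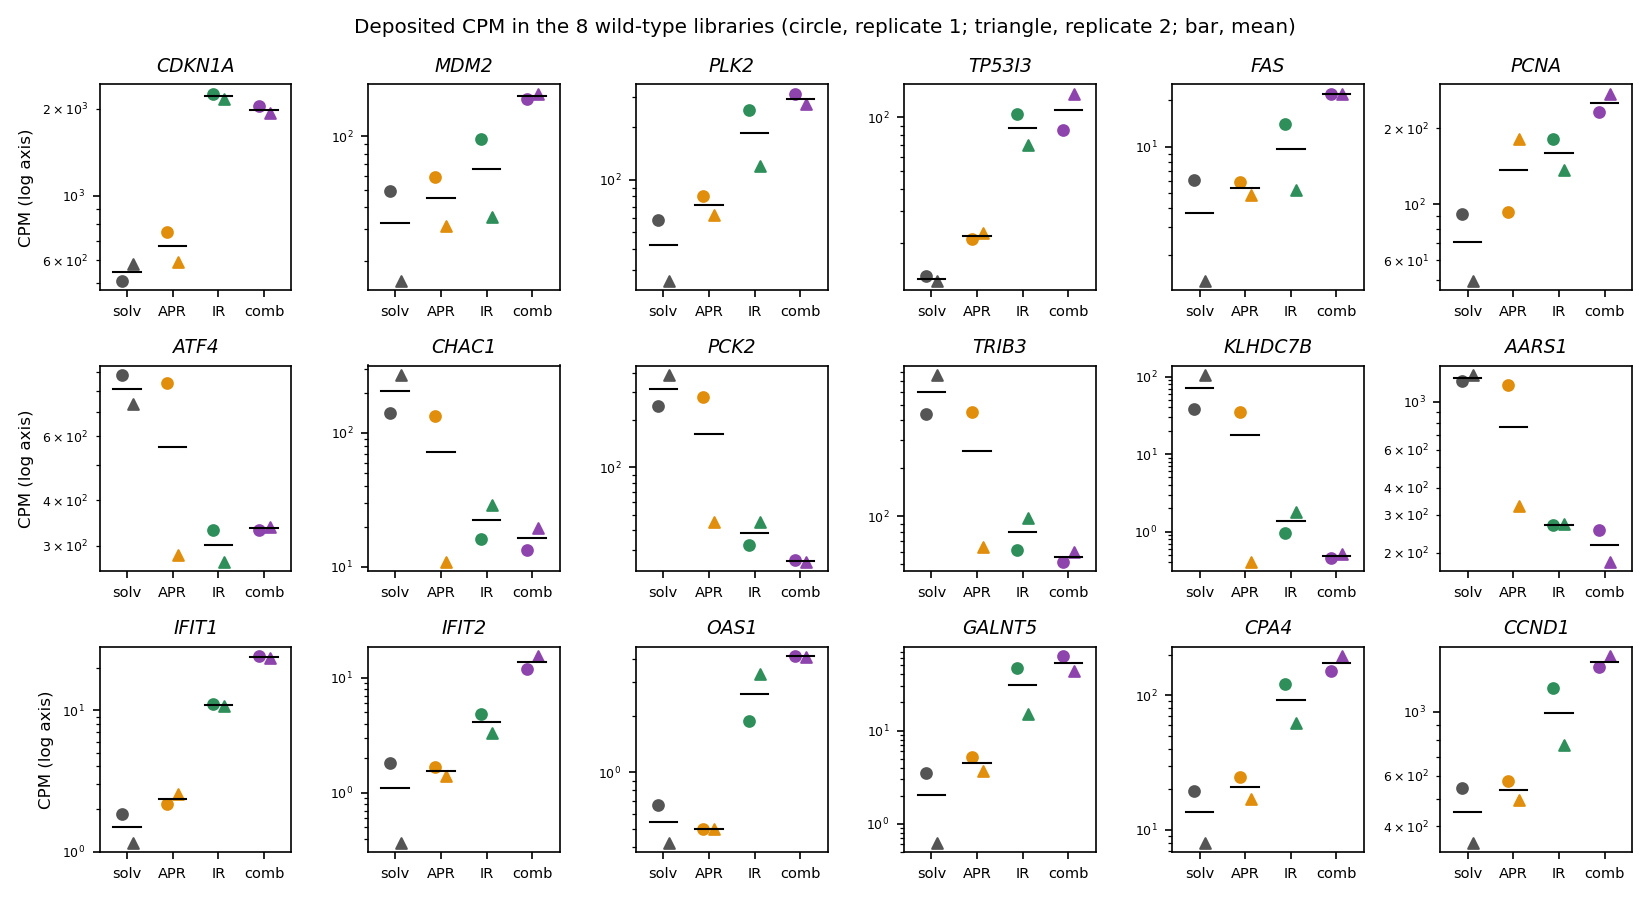
Deposited CPM (log axes, each with its own range) of 18 genes in the 8 wild-type libraries, for solvent, APR-246, irradiation (IR) and combination; circles are replicate 1, triangles replicate 2 and bars the mean of both. CDKN1A sits between 1930 and 2253 CPM in the irradiation and combination libraries, and CHAC1 is low in all of them and in APR-246 library 2 but not in APR-246 library 1.

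Of 18 tested ATF4 regulators, ATF4 among them, 7 fell in the combination and 0 rose. ATF4 mRNA was 885 and 735 CPM in solvent and 332 and 338 CPM in the combination (-1.53 ± 0.37, adjusted p = 0.0383). TRIB3, a pseudokinase induced by ATF4 that feeds back on it, went from 437 and 768 CPM to 51.7 and 59.9 CPM, 10.8-fold lower by the means (-3.63 ± 0.78, adjusted p = 0.0199). CHAC1, which degrades glutathione, went from 141 and 272 CPM to 13.4 and 19.7 CPM (-3.81 ± 0.79, adjusted p = 0.0161). DDIT4, an mTORC1 inhibitor, went from 352 and 506 CPM to 53.4 and 67.5 CPM (-3.07 ± 0.51, adjusted p = 0.00511). An antisense gene covers 41.2% of the exonic bases of DDIT4, and the counting strand is not given in the sources used here. The transcription regulators NUPR1, JDP2 and ATF5 fell by log2 1.97, 2.19 and 2.29. The groups of these genes did not overlap, as in 37.7% of all genes tested. The solvent libraries differed more from each other than the combination libraries did in TRIB3 and CHAC1.

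The median of the 18 regulators was -1.98, and 14 fell with the replicate block within each line and 15 with the GC slope. The number called was 5 without solvent library 1, 0 without solvent library 2, 0 without combination library 1 and 1 without combination library 2, while the median stayed between -2.31 and -1.70. The calls of ATF4 were lost in each of these 4 fits, at -1.72 to -1.35, and edgeR gave it an adjusted p of 0.0567.

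Of 19 tested ATF4 targets that make or import amino acids, 6 fell and 0 rose. PHGDH, the entry enzyme of serine synthesis, went from 396 and 707 CPM to 65.6 and 75.5 CPM (-3.17 ± 0.64, adjusted p = 0.0143). ASNS, asparagine synthetase, went from 12.7 and 11.2 CPM to 1.91 and 1.06 CPM (-2.89 ± 0.66, adjusted p = 0.0287). Another annotated gene shares 44.6% of the exonic bases of ASNS on the same strand. SLC1A4, a carrier of alanine, serine and cysteine, went from 42.7 and 49.5 CPM to 3.32 and 4.58 CPM (-3.64 ± 0.59, adjusted p = 0.00432). The arginine carrier SLC7A1, the glycine carrier SLC6A9 and the alanine transaminase GPT2 fell by 1.83, 2.77 and 1.70. SLC7A11, the cystine importer that limits glutathione synthesis, was 105 and 26.3 CPM in solvent and 15.6 and 11 CPM in the combination (-2.22 ± 0.95, adjusted p = 0.296). Its 2 solvent libraries differed from each other by more than solvent library 2 differed from the combination. The median of the 19 genes was -1.70, and 13 fell with the block and 17 with the GC slope. Leaving out solvent library 1 or 2 left 4 and 0 called, and leaving out combination library 1 or 2 left 1 each.

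Of 18 aminoacyl-tRNA synthetases, which charge tRNAs with amino acids, 5 fell and 0 rose. AARS1, for alanine, went from 1250 and 1336 CPM to 255 and 181 CPM (-2.85 ± 0.47, adjusted p = 0.00507). WARS1, for tryptophan, went from 420 and 444 CPM to 100 and 110 CPM (-2.30 ± 0.48, adjusted p = 0.0162). YARS1, CARS1 and GARS1 fell by 1.87, 1.56 and 1.31. The median of the 18 was -0.50, and with the GC slope 1 rose and 11 fell. Calls numbered 4, 0, 1 and 0 without solvent library 1, solvent library 2, combination library 1 and combination library 2.

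The promoter letters of AARS1 and SLC7A1 are shown because these are the 2 genes of the 3 lists with the smallest adjusted p that hold the composite element of C/EBP and ATF factors, searched as TGATGNAA on both strands. Each runs from 250 bases before to 20 bases after the annotated start, 5′ to 3′ on the gene's strand, from RefSeq on GRCh38.p14, with the match in capitals. AARS1 is chr16:70289487-70289756 and SLC7A1 is chr13:29595669-29595938, both on the minus strand.
AARS1: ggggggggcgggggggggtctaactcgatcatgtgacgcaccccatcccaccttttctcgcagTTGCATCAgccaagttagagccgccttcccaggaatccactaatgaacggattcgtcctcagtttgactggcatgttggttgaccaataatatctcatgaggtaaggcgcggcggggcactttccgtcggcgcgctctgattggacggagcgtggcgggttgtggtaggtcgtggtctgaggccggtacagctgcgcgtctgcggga
SLC7A1: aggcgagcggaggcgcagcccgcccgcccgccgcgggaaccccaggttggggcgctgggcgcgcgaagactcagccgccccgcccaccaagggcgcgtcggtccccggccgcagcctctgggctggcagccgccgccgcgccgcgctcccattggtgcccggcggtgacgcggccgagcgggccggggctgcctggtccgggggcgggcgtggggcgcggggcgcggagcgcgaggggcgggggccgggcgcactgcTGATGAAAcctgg
In windows of 250 bases before to 50 after the start, 3 of 18 ATF4 regulators, 3 of 14 amino acid genes and 6 of 14 tRNA synthetase genes with a promoter in the table held the element, 16.7%, 21.4% and 42.9%, against 3.62% of 35116 promoters. The called genes ASNS, CHAC1 and CARS1 held it too. A match describes letters only.

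Endoplasmic reticulum chaperones and genes of the unfolded protein response counted 3 falls and 0 rises among 28, with a median of -0.52. HYOU1, a chaperone of the lumen, went from 783 and 596 CPM to 234 and 228 CPM (-1.83 ± 0.37, adjusted p = 0.0136). XBP1, a transcription factor of the response, and HERPUD1, which serves degradation of misfolded proteins, fell by 1.47 and 1.38. The block gave 7 falls, the GC slope 21 falls and 1 rise. All 3 calls held in the fit that omits solvent library 1, and the fits that omit solvent library 2 or a combination library had 0. Ribosomal protein mRNAs had a median of -0.68 over 73 genes, and 1 of them, RPL37, fell (505 and 344 CPM to 290 and 212 CPM, -1.01 ± 0.25, adjusted p = 0.0464, lost in all 4 fits that omit a library, at -1.18 to -0.85). The combination libraries lay below both solvent libraries in 45 of the 73, as in 11.8% of all genes, 7 fell with the block, and 42 fell and 1 rose with the GC slope. The 2 solvent libraries themselves stood 0.35 above and below their mean in this list, and its median was -1.08 without solvent library 1 and -0.30 without solvent library 2. Of 21 snoRNA host genes 0 rose and 2 fell, SNHG5 (-1.22) and EPB41L4A-AS1 (-1.59), the latter with 49.6% of its exonic bases covered by an opposite gene. With the block 6 of these hosts fell and 1 rose, and with the GC slope 10 and 3.

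**Figure D3:**
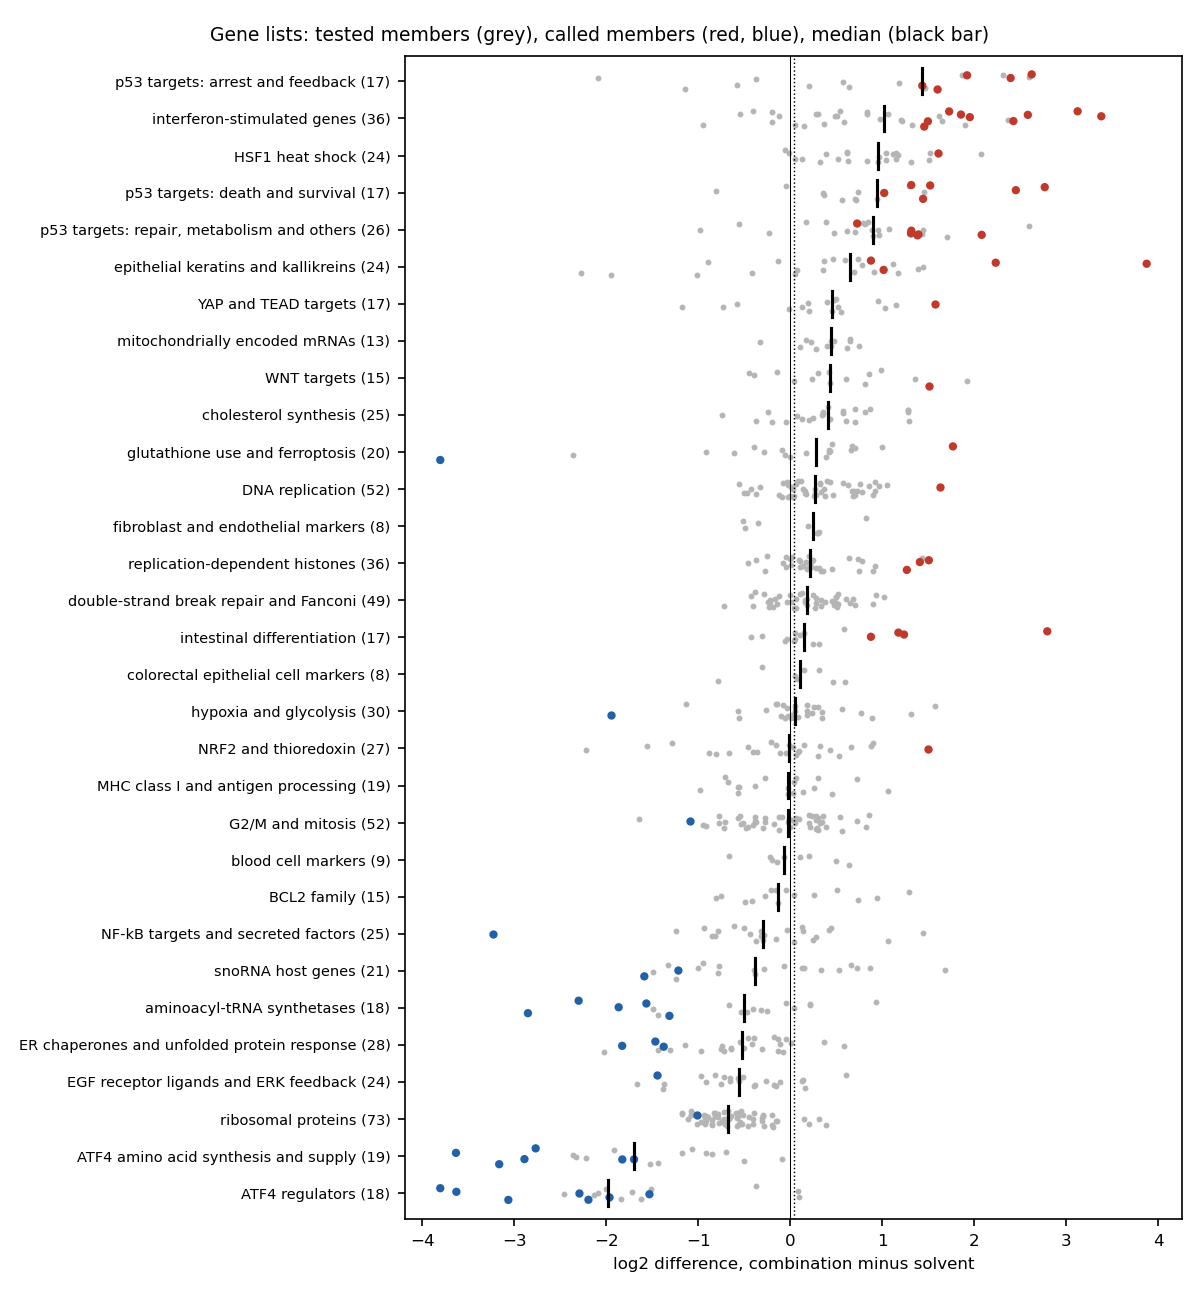
Log2 difference, combination minus solvent, of every tested member of 31 gene lists, sorted by median (black bar) and with the number tested in parentheses; red and blue points passed the test over all genes, and the dotted line is the median of all genes, 0.04. The ATF4 lists lie lowest, with medians of -1.98 and -1.70, and the arrest and feedback p53 list and the interferon-stimulated genes highest, at 1.44 and 1.02.

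Of 36 tested interferon-stimulated genes, 9 rose and 0 fell. IFIT1, which binds foreign RNA that lacks a host cap, was 1.84 and 1.15 CPM in solvent and 24.2 and 23.2 CPM in the combination, 15.9-fold higher by the means (3.38 ± 0.25, adjusted p = 2.83e-06). IFIT2 went from 1.82 and 0.365 CPM to 11.9 and 15.5 CPM (3.13 ± 0.33, adjusted p = 0.000115), and IFIT3 from 1.1 and 0.329 CPM to 6.86 and 7.93 CPM (2.58 ± 0.34, adjusted p = 0.000841). The 3 genes lie near each other on chromosome 10. OAS1, a sensor of double-stranded RNA, went from 0.667 and 0.42 CPM to 4.15 and 4.11 CPM (1.95 ± 0.39, adjusted p = 0.0124). IFI44 and HERC6 rose by 1.73 and 1.46. No combination library overlapped a solvent library in these 6 genes, which were named because they were called. Of all genes tested, 37.7% did not overlap.

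The median of the 36 genes was 1.02, while 18 rose with the block and 24 rose and 1 fell with the GC slope. Of all genes, 1.3% rose and 0.929% fell in the main fit. The shares were 3.29% and 2.88% with the block and 11.2% and 10.5% with the GC slope. The number called was 6, 4, 4 and 3 without solvent library 1, solvent library 2, combination library 1 and combination library 2. IFIT1, IFIT2 and IFIT3 were called in each of these fits, OAS1 in none (1.91 to 2). Genes of MHC class I and antigen processing had 0 calls among 19 (median -0.02), also with the block, and 3 rises and 5 falls with the GC slope. ERAP2 and HLA-F had the smallest adjusted p there, at 0.239 and 0.431. The list of NF-kB targets and secreted factors had 0 rises and 1 fall among 25, LCN2, a siderophore-binding secreted protein, from 76.1 and 61.7 CPM to 7.67 and 8.82 CPM (-3.23 ± 0.71, adjusted p = 0.0228). It was called in none of the 4 fits that omit a library (-3.40 to -3.07).

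The promoters of IFIT1 and IFIT3 are shown for the interferon response element, searched as TTTCNNTTT on both strands, by the same rule and in the same window and source. IFIT1 is chr10:89392373-89392642 and IFIT3 is chr10:89327747-89328016, both on the plus strand, with 3 and 2 matches in capitals.
IFIT1: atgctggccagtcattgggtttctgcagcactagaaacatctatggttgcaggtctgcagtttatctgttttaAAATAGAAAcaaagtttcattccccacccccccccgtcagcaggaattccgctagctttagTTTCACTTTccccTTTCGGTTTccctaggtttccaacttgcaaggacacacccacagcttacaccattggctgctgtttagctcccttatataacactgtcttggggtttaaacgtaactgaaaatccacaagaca
IFIT3: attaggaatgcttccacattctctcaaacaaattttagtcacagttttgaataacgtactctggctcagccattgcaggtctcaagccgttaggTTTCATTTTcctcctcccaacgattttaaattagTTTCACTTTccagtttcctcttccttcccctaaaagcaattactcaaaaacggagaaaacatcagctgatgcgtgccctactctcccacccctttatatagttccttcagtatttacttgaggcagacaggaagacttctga
The matches of IFIT1 begin 177, 116 and 103 bases before the start and those of IFIT3 156 and 122 bases before it. The element was in 25 of 32 promoters of the list (78.1%) and in 6 of 8 called members with a promoter, against 10.5% of all promoters.

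Heat shock genes had a median of 0.96 over 24 genes, and 1 of them passed the test. HSPB8, a small heat shock protein that works with BAG3 in clearing damaged proteins, went from 1.91 and 1.68 CPM to 7.25 and 8.27 CPM (1.6 ± 0.37, adjusted p = 0.0296). Omitting any of the 4 libraries ended its call (1.43 to 1.78). In 22 of the 24 genes both combination libraries lay above both solvent libraries, as in 25.9% of all genes, and 6 rose with the block and 19 with the GC slope. The promoter of HSPB8, chr12:119178681-119178950 on the plus strand, holds the heat shock element searched as GAANNTTC on both strands at 2 places, in capitals.
HSPB8: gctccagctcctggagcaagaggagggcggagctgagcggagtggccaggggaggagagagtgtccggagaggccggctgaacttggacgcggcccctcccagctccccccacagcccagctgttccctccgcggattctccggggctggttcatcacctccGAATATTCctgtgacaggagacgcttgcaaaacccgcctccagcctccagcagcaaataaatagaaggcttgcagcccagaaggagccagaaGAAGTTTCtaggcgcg
This element was in 8 of 22 promoters of the list (36.4%) and in 6.77% of all promoters.

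The targets of NRF2, the factor freed by oxidants and by drugs that bind cysteines, showed 1 rise and 0 falls among 27 genes, with a median of -0.02. AKR1B10, an aldo-keto reductase with close relatives, was 0.108 and 0.146 CPM in solvent and 1.2 and 1.85 CPM in the combination (1.49 ± 0.32, adjusted p = 0.0199, edgeR adjusted p = 0.21), and lost its call without combination library 2 or either solvent library (1.23 to 1.76). Its solvent libraries lay under the filter's 10 reads, so it was tested only for its level in other groups, and its call is given without a reading. HMOX1, haem oxygenase, was 35.9 and 66.4 CPM in solvent and 44.1 and 81.3 CPM in the combination (0.03 ± 0.62, adjusted p = 0.994). TXNRD1, thioredoxin reductase, was 461 and 239 CPM against 355 and 336 CPM (-0.21 ± 0.45, adjusted p = 0.921). Both genes overlapped between the groups. Glutathione use and ferroptosis counted 1 rise, the lipoxygenase ALOX5 (2.79 and 2.1 CPM to 12.1 and 10.6 CPM, 1.77 ± 0.38, adjusted p = 0.0187, edgeR adjusted p = 0.203), and 1 fall, CHAC1, among 20 genes. With the GC slope 4 NRF2 targets rose and 8 fell, and 5 glutathione genes rose and 3 fell, while the block gave 1 rise and 2 falls in each list. Of all genes, 11.2% rose and 10.5% fell with the GC slope, and 3.29% and 2.88% with the block.

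Among the 12 largest rises were 7 genes of no p53 or interferon list and no near-identical family. GALNT5 (chr2:157257598-157314211), which starts mucin-type O-glycosylation, was 3.48 and 0.621 CPM in solvent and 63.3 and 43.2 CPM in the combination, 26-fold by the means (4.44 ± 0.47, adjusted p = 0.00012). KLK5, a secreted serine protease of skin, went from 1.91 and 3.43 CPM to 38.7 and 75.6 CPM (3.88 ± 0.70, adjusted p = 0.00789), a call lost without solvent library 1 or combination library 2 (3.26 at the lowest). CPA4, a secreted carboxypeptidase, went from 19.3 and 7.96 CPM to 152 and 196 CPM (3.49 ± 0.25, adjusted p = 2.83e-06). THBS1, a matrix glycoprotein that inhibits vessel growth, went from 2.27 and 1.06 CPM to 16.9 and 18.5 CPM (2.90 ± 0.33, adjusted p = 0.000231). CEACAM1, an adhesion receptor of colon epithelium, went from 0.685 and 0.146 CPM to 4.95 and 8.06 CPM (2.80 ± 0.31, adjusted p = 0.000185). ZBED2, a zinc finger repressor, went from 3.24 and 2.37 CPM to 30.6 and 46.7 CPM (3.29 ± 0.35, adjusted p = 0.000115), and SYT8, a synaptotagmin, from 0.144 and 0.256 CPM to 3.13 and 6.58 CPM (2.63 ± 0.33, adjusted p = 0.00052). GALNT5, CPA4, THBS1, CEACAM1, ZBED2 and SYT8 were called without each of the 4 libraries in turn.

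The keratin-associated genes KRTAP2-3 and KRTAP3-1 belong to families of near-identical copies on chromosome 17, so their counts are uncertain. KRTAP2-3 was 1.75 and 1.13 CPM in solvent and 19.3 and 24.8 CPM in the combination (3.31 ± 0.36, adjusted p = 0.000122). KRTAP3-1 had 0 reads in both solvent libraries and 2.23 and 8.34 CPM in the combination, at least 97.1-fold higher against a floor of 3 reads per library (adjusted p = 0.0073, lost without solvent library 2 or combination library 2, at 2.22 to 3.99). It passed the filter on low values only through other groups, so its call is given without a reading. Of 24 epithelial keratins and kallikreins 4 rose and 0 fell (KLK5, KRT6A, KRT6B and KRT20; median 0.65), 7 rose and 2 fell with the block, 14 and 2 with the GC slope, and 1, 1, 2 and 1 were called without solvent library 1, solvent library 2, combination library 1 and combination library 2. KRT6A and KRT6B are near-identical, and their levels in the combination were 2.76 to 3.35 CPM and 0.519 to 0.919 CPM. Of 17 intestinal differentiation genes 4 rose and 0 fell (CEACAM1, MUC13, CA2 and KRT20; median 0.15). CA2, carbonic anhydrase of mature colonocytes, went from 14.3 and 7.45 CPM to 35.7 and 25.3 CPM (1.24 ± 0.27, adjusted p = 0.0228).

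The remaining largest falls were in genes of several kinds. KLHDC7B (chr22:50545891-50551023), a kelch domain protein, was 38.5 and 105 CPM in solvent and 0.46 and 0.519 CPM in the combination, 147-fold lower by the means (-6.17 ± 1.25, adjusted p = 0.014). Without solvent library 1 its difference was -7.21 and still called, and the call ended when solvent library 2 or a combination library was omitted. UPP1, uridine phosphorylase, went from 231 and 570 CPM to 24 and 25.4 CPM (-4.11 ± 0.85, adjusted p = 0.0156), and PCK2, the mitochondrial phosphoenolpyruvate carboxykinase, from 247 and 388 CPM to 25.7 and 25 CPM (-3.84 ± 0.68, adjusted p = 0.00761). RBCK1, a subunit of the linear ubiquitin ligase, went from 1262 and 1721 CPM to 119 and 151 CPM (-3.72 ± 0.70, adjusted p = 0.0096). RBCK1 (chromosome 20, 407498 to 430966) lies next to TRIB3 (362835 to 397559) on the same strand with no shared exonic base. NIBAN1, induced by cell stress, fell by 3.66, the receptor chain IL20RB by 3.80, the calcium channel TRPV6 by 3.49 and the anion channel BEST1 by 3.53. BEST1 had an edgeR adjusted p of 0.0919. DYSF, dysferlin, which serves membrane repair, went from 23 and 24.7 CPM to 2.86 and 1.13 CPM (-3.60 ± 0.43, adjusted p = 0.000363) and was called without each library in turn. SLC1A4 lost its call without solvent library 2 (-3.21). UPP1, PCK2, RBCK1 and IL20RB were called without solvent library 1 (-5.08, -4.49, -4.26 and -3.98) and in none of the other 3 such fits.

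Cell cycle genes had few calls, as did all genes (1.3% higher, 0.929% lower). With the block within each line the shares of all genes were 3.29% and 2.88%, and with the GC slope 11.2% and 10.5%. Among 52 DNA replication genes 1 rose, PCNA, the sliding clamp that is also a p53 target, from 91.8 and 49.7 CPM to 232 and 273 CPM (1.62 ± 0.34, adjusted p = 0.0155), and 0 fell. MCM4, a subunit of the replicative helicase, was 93.4 and 42.7 CPM in solvent and 120 and 138 CPM in the combination (0.76 ± 0.36, adjusted p = 0.364). Among 52 G2/M and mitosis genes 0 rose and 1 fell, CDC25C, the phosphatase that starts mitosis, from 10.1 and 10.3 CPM to 5.82 and 5.15 CPM (-1.09 ± 0.27, adjusted p = 0.048). MKI67, the proliferation marker, was 162 and 65.9 CPM against 129 and 101 CPM (-0.12 ± 0.42, adjusted p = 0.954). With the block 3 replication genes rose, and with the GC slope 9 rose and 1 fell. Among G2/M genes 4 fell with the block, and 9 fell and 1 rose with the GC slope. Both combination libraries lay above both solvent libraries in 28 of the 52 replication genes and in 10 of the 52 G2/M genes, and below them in 2 and 13. Of all genes, 25.9% lay above and 11.8% below. The PCNA and CDC25C calls were lost without solvent library 2 or either combination library (1.45 to 1.80 and -1.41 to -0.77). Of 36 replication-dependent histone genes 3 rose and 0 fell, H2BC5, H2BC4 and H2BC21 (1.51, 1.41 and 1.27), members of near-identical families whose mRNAs mostly lack the poly(A) tail used for selection here. The block gave 5 histone rises and the GC slope 8. Double-strand break repair and Fanconi genes had 0 calls among 49, also with the block, and 3 rises and 4 falls with the GC slope. In bulk RNA, a smaller share of cells in a phase and less RNA per cell cannot be told apart.

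Of the other lists, most had a single call. The shares of all genes were 1.3% higher and 0.929% lower. They were 11.2% and 10.5% with the GC slope, and 3.29% and 2.88% with the block within each line. CCND1, cyclin D1, was the 1 rise among 15 WNT targets, from 546 and 350 CPM to 1429 and 1567 CPM (1.51 ± 0.26, adjusted p = 0.0059). CCN2, a matrix signalling protein, was the 1 rise among 17 YAP and TEAD targets, from 1.98 and 1.83 CPM to 6.5 and 9.73 CPM (1.57 ± 0.27, adjusted p = 0.00662). VEGFA, the vessel growth factor, was the 1 fall among 30 hypoxia and glycolysis genes, from 245 and 132 CPM to 55 and 55.8 CPM (-1.95 ± 0.44, adjusted p = 0.0282). ETV5, an ERK-driven transcription factor, was the 1 fall among 24 EGF receptor ligand and ERK feedback genes (-1.45). Cholesterol synthesis genes had 0 calls among 25 with a median of 0.41, BCL2 family genes 0 among 15 with a median of -0.13, and mitochondrially encoded mRNAs 0 among 13 with a median of 0.44. MSMO1 and IDI1 of cholesterol synthesis had adjusted p of 0.1 and 0.127, RAD51C and FANCL of break repair 0.118 and 0.341, and MT-ATP8 and MT-ND6 of the mitochondrial list 0.287 and 0.31. With the GC slope 9 cholesterol synthesis genes rose and 1 fell (3 rose with the block), 8 mitochondrial mRNAs rose (0 with the block), 9 WNT targets rose (4 with the block), and 5 YAP and TEAD targets rose and 2 fell (3 rose with the block). BCL2 family genes had 5 rises and 1 fall with the GC slope, hypoxia genes 4 and 3, and EGF receptor and ERK genes 1 and 7, against 1 rise, 2 rises and 2 falls, and 4 falls with the block. The sign of the list medians of NRF2, MHC class I, G2/M and BCL2 genes turned from negative to positive without TMM scaling, and that of no p53, ATF4, tRNA synthetase, chaperone, ribosomal, interferon or heat shock list did.

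The next question is what the combination added to irradiation alone in WT. Against the 2 WT irradiation libraries limma called 0 genes (0%), with 849 at an unadjusted p under 0.05, edgeR called 0 and DESeq2 called 1, STRA6, which is high in irradiation library 2 alone (10.3 CPM, against 0.662 CPM in irradiation library 1). CDKN1A was 2253 and 2162 CPM after irradiation and 2044 and 1930 CPM in the combination (-0.42 ± 0.40, adjusted p = 0.785). IFIT1 was 11.1 and 10.7 CPM after irradiation and 24.2 and 23.2 CPM in the combination, with no overlap (0.83 ± 0.25, adjusted p = 0.785). IFIT2 was 4.89 and 3.31 CPM against 11.9 and 15.5 CPM (1.39 ± 0.33, adjusted p = 0.785). MDM2 was 96 and 35.2 CPM against 162 and 173 CPM (1.25 ± 0.58, adjusted p = 0.785). CHAC1 was 16.1 and 28.9 CPM and TRIB3 61.3 and 98.1 CPM after irradiation, next to 13.4 and 19.7 CPM and 51.7 and 59.9 CPM in the combination. The list medians against irradiation were 0.41, 0.13 and 0.18 for the p53 lists, -0.15 and -0.10 for the ATF4 lists, and 0.15 for interferon-stimulated genes, beside 0.03 for all genes. Without irradiation library 1 the count of calls was 47, of which 43 were lower, and without combination library 1 it was 1.

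Set against APR-246 alone, the combination could be compared with 2 libraries that stood apart from each other. In APR-246 library 1 the ATF4 genes were near their solvent level and in library 2 near their combination level. CHAC1 was 133 and 10.9 CPM and TRIB3 451 and 64.3 CPM in APR-246 libraries 1 and 2, and the median of the ATF4 regulators relative to the mean of solvent was -0.13 and -2.14. Against both, 78 genes were higher (0.377%) and 7 lower (0.0339%) in the combination. The count was 12 without APR-246 library 1, 122 without APR-246 library 2, 41 without combination library 1 and 12 without combination library 2, and 11 by edgeR. IFIT1 was 2.17 and 2.57 CPM with APR-246 alone (combination minus APR-246, 2.92 ± 0.25, adjusted p = 3.6e-05), and CPA4 24.5 and 16.9 CPM (2.90 ± 0.25, adjusted p = 3.6e-05). IFIT2 (2.63), the scaffold protein FRMPD2 (1.54) and the synaptic protein RIMS4 (1.37) followed. FRMPD2 and RIMS4 are low genes, as their WT and Null values below show, so their calls are given without a reading. Among the 7 lower genes were IQGAP3, a scaffold of dividing cells (-1.24 ± 0.24, adjusted p = 0.0282), ABCG1, a sterol exporter (-1.34 ± 0.23, adjusted p = 0.0155), the exchange factor NGEF (-1.73), DYSF (-2.12) and TBL1X (-1.06). IQGAP3 was called in none of the 4 fits that omit a library (-1.33 to -1.15), ABCG1 lost its call without APR-246 library 1 or combination library 2 (-1.27 and -1.13), and NGEF, DYSF and TBL1X lost theirs without APR-246 library 1 (-1.44, -1.37 and -0.89) or either combination library. Of the p53 lists 2 of 17, 3 of 17 and 0 of 26 genes were higher than with APR-246 alone, and of the interferon-stimulated genes 5 of 36. The fit of the main comparison without APR-246 library 1, chosen after seeing the data, called 316 genes higher and 295 lower. The comparisons with irradiation, APR-246 and solvent share the 2 combination libraries.

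**Figure D4:**
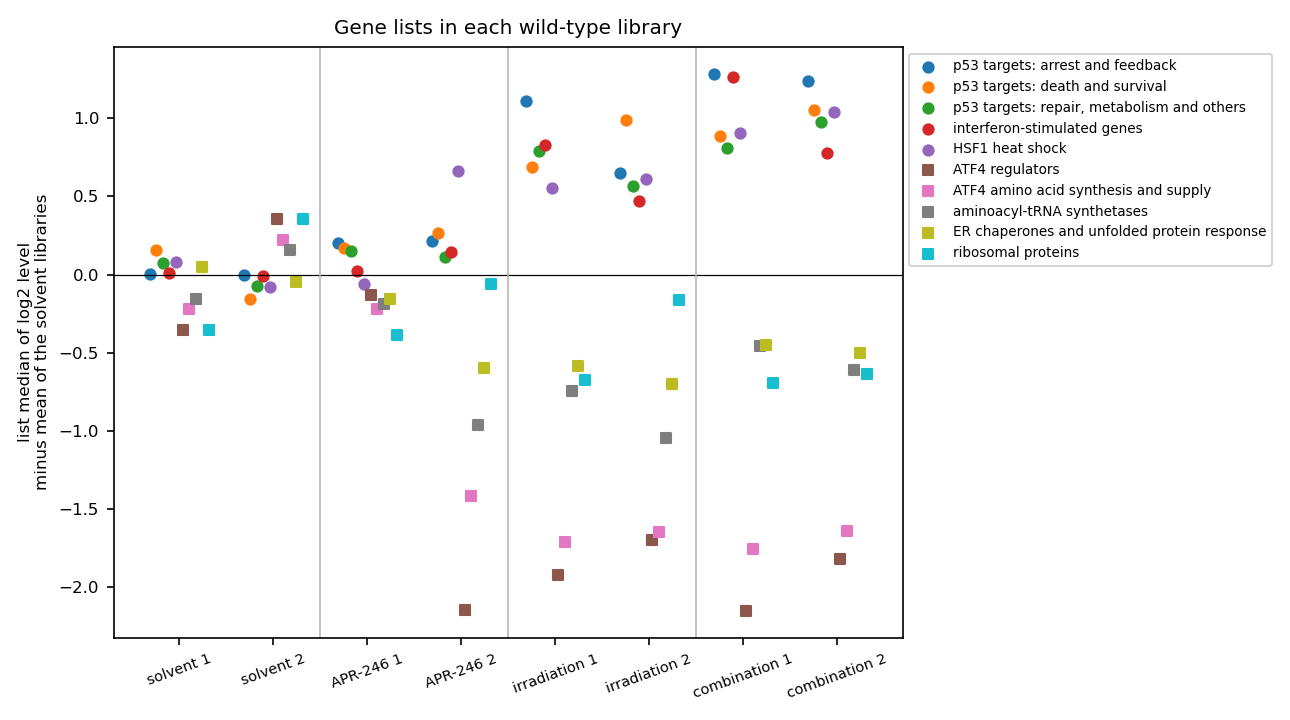
Median over each of 10 gene lists of the log2 level minus the mean of the 2 solvent libraries, in each of the 8 wild-type libraries; circles mark the lists with higher and squares those with lower medians in the combination. The p53 lists stand at 0.57 to 1.11 in the irradiation libraries and 0.81 to 1.28 in the combination libraries, and the ATF4 lists are low in all of these and in APR-246 library 2.

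Departure from the sum of the 2 single treatments was tested as the combination minus irradiation minus APR-246 plus solvent. It was called in 0 genes (0%) by limma, edgeR and DESeq2, with 641 at an unadjusted p under 0.05 in limma. The median standard error was 0.45 on the log2 scale, against 0.32 for a difference between 2 groups. For CDKN1A the departure was -0.60 ± 0.56, for IFIT1 0.36 ± 0.35, for IFIT3 1.01 ± 0.48 and for SLC7A11 2.58 ± 1.34, each with an adjusted p of 0.964. List medians of the departure were 1.16 and 0.72 for the ATF4 lists, -1.16 for WNT targets, and -0.81 and -0.80 for cholesterol synthesis and hypoxia. They were 0.18, 0.01 and 0.13 for the p53 lists and 0.15 for interferon-stimulated genes, beside 0.02 for all genes. The 2 APR-246 libraries, which stood apart from each other, enter each of these values. Without irradiation library 1 limma called 21 genes, all lower, without APR-246 library 1 it called 9, and without combination library 1 it called 1.

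How far the response to the combination differed between WT and Null was tested as a difference of differences. It was called for 6 genes (0.029%), 5 above and 1 below zero, with 1012 at an unadjusted p under 0.05. With the replicate block within each line 53 were called, and with the GC slope 416 (304 above, 112 below). CPA4 was 19.2 and 10.5 CPM in Null solvent and 33.7 and 22.8 CPM in the Null combination, against 19.3 and 7.96 CPM and 152 and 196 CPM in WT (difference 2.60 ± 0.35, adjusted p = 0.00872, edgeR adjusted p = 0.0392). ZBED2 was 50.6 and 30.6 CPM in Null solvent and 51.9 and 44.8 CPM in the Null combination, a level that WT reached only with the treatment (3.06 ± 0.49, adjusted p = 0.0422). DYSF was 0.486 to 1 CPM in the 4 Null libraries (-3.82 ± 0.61, adjusted p = 0.0422). At that level a fall as large as the one in WT could not be seen in Null. RIMS4, FRMPD2 and SPATA18 were at most 0.139 CPM in the Null libraries and at most 2.15 CPM in WT, and edgeR adjusted p for them were 0.961, 0.965 and 0.961. They passed the filter on low values only through other groups, so their calls are given without a reading. The count was 0 without WT solvent library 2 or Null combination library 1, 1 without Null combination library 2, 2 without Null solvent library 1, 10 without WT combination library 1, and 5 without each of the remaining 3 libraries.

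The p53 lists had median differences of 1.44, 0.94 and 0.90 in WT, -0.29, 0.11 and -0.25 in Null, and -0.41, 0.34 and 0.06 in Mutant. CDKN1A was 348 and 357 CPM in Null solvent and 287 and 294 CPM in the Null combination, and its response in WT exceeded that in Null by 1.94 ± 0.56 (adjusted p = 0.548), or by 2.27 ± 0.23 with the GC slope (adjusted p = 7.46e-06). PLK2 exceeded Null by 2.53 ± 0.46 (adjusted p = 0.0755) and by 2.24 ± 0.18 with the GC slope (adjusted p = 4.09e-07), and MDM2 by 2.66 ± 0.82 (adjusted p = 0.631) and 2.06 ± 0.24 (adjusted p = 3.55e-05). Over all genes the GC slope raised the calls of this test from 6 to 416. The ATF4 and interferon values that follow come from the main fit alone, in which CDKN1A, PLK2 and MDM2 did not pass. They cannot be set against the GC slope values above. The ATF4 lists had medians of -1.98 and -1.70 in WT, -2.04 and -1.58 in Null and -1.42 and -1.45 in Mutant. ATF4 itself was 816 and 676 CPM in Null solvent and 325 and 277 CPM in the Null combination, and the WT minus Null difference was -0.17 ± 0.52 (adjusted p = 0.959). The interferon-stimulated genes had medians of 1.02 in WT, 0.59 in Null and 0.26 in Mutant. IFIT1 was 1.65 and 0.85 CPM in Null solvent and 16.4 and 9.99 CPM in the Null combination, with a difference of 0.42 ± 0.35 from WT (adjusted p = 0.938). PCNA had a log2 difference of 1.62 in WT, 1.63 in Null and 1.83 in Mutant. An adjusted p above the threshold does not show that 2 lines respond alike.

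**Figure D5:**
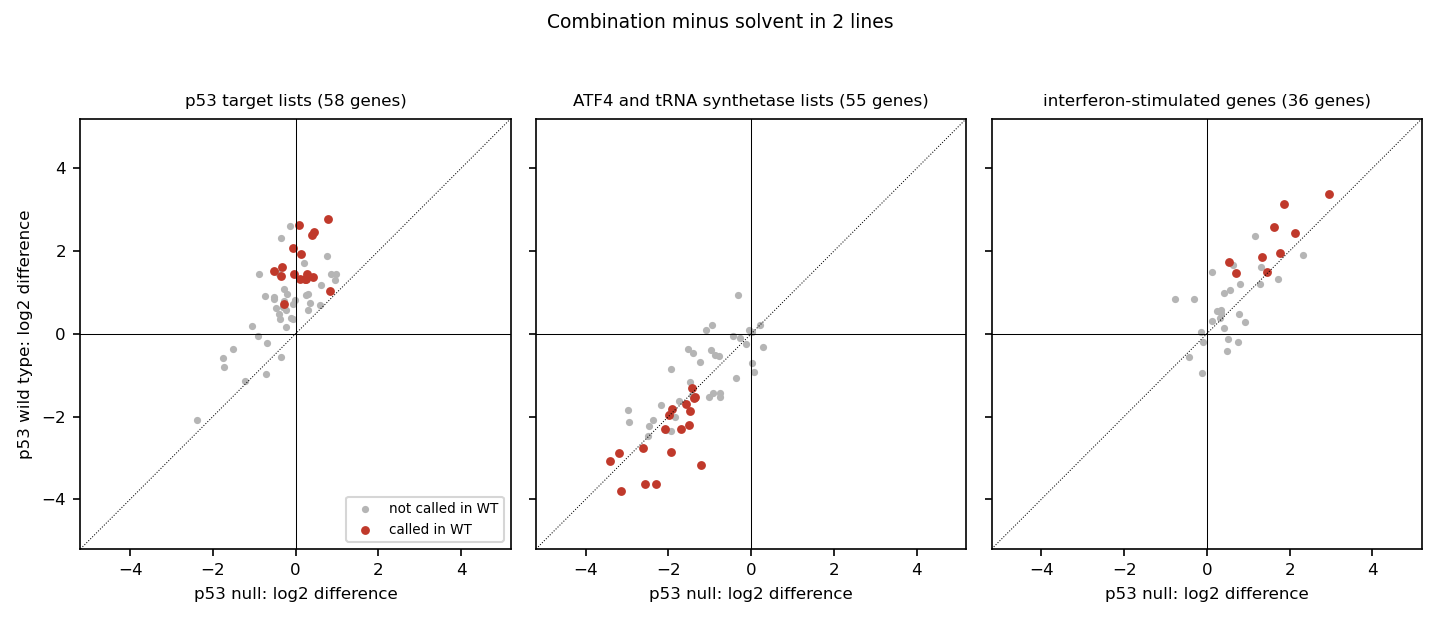
Log2 difference, combination minus solvent, of each tested list member in Null (horizontal) and WT (vertical), with red for genes called in WT and a dotted line of equal differences. The red points were chosen for their difference in WT, so their side of the line is no test; all p53 and all 9 interferon points called in WT lie above it, and called ATF4 genes lie on both sides.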

How the data were processed

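Poly(A)-selected RNA of 24 libraries was sequenced as paired reads of 100 bases on a BGIseq500, per the labels' protocols. FastQC, STAR and featureCounts of Subread on GRCh38.p13 are named in the submitters' processing notes, and versions, annotation and counting strand are not given in the sources used here. The authors deposited CPM, with read counts scaled to the same library total, for 60675 ids.

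Whole reads were recovered from the CPM steps: 100% of values came out whole within 0.05 of a read, which gave 53184139 to 58058729 reads per library. Even numbers made up 74.5 to 81.5% of values of 2 to 9 reads, so mates seem to be counted singly. A floor of 3 reads is 0.0517 to 0.0564 CPM and covers counting error only. Symbols matched 60419 ids and GENCODE 29 matched 58444, which gave coordinates and GC percent (98.3% of tested genes).

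The comparison used limma 3.58.1 (trend, robust variance; R 4.3.3) on log2(TMM-scaled CPM + 0.5), a scale that understates the change of low genes. Genes passed edgeR's filterByExpr at a count minimum of 10, each of the 12 groups had 1 coefficient, and 12 residual degrees of freedom remained. The scripts were tested on simulated data, and calls of edgeR 4.0.16 stand beside those of limma. DESeq2 1.42.0, other scalings, pseudocounts and filters, a GC slope, replicate blocks and leaving out each library were alternatives.

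Same-numbered libraries deviated together: all 6 correlations between the 4 WT groups were over 0.1 (0.529 to 0.939), as were 55 of 66 over all 12 groups (lowest -0.722), so the replicate block is printed beside the counts it moved. The comparison and the lists were chosen with earlier results of these data known. Named genes are the 12 largest called rises and falls with a symbol, at least 1 CPM and groups that do not overlap, up to 6 called members of each list (2 members with the smallest adjusted p where none was called), up to 5 per direction of the further comparisons, and 18 fixed genes, 1 of which is not reported here. STRA6 and ATF5 fall outside this rule and were named after their values were seen, as were values of fixed genes in comparisons without calls.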

Additional observations from a re-analysis of the deposited data

Results flagged for a closer look

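The limma test of the difference in response between WT and Null passed for 6 genes, of which edgeR called 1, CPA4. The differences in log2 response, WT minus Null, were 1.91 ± 0.22 (SE) for RIMS4 (adjusted p = 0.00512), 1.49 ± 0.20 for SPATA18 and 1.62 ± 0.21 for FRMPD2 (adjusted p = 0.00872 each), 2.60 ± 0.35 for CPA4 (adjusted p = 0.00872), 3.06 ± 0.49 for ZBED2 and -3.82 ± 0.61 for DYSF (adjusted p = 0.0422 each). CPA4 had an edgeR adjusted p of 0.0392 and ZBED2 and DYSF of 0.0895 and 0.106. DYSF was already low in Null solvent, so a fall as large as the one in WT could not be seen there. RIMS4, SPATA18 and FRMPD2 were at most 0.139 CPM in the Null libraries, under the filter's 10 reads, so they were tested only for their level in other groups. Their edgeR adjusted p were 0.961, 0.961 and 0.965, DESeq2 gave none, and no difference between the lines is read from them. With the replicate block within each line the adjusted p of all 6 genes were 0.00398 to 0.0109. None of the 6 was called without WT solvent library 2, nor without Null combination library 1.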

How the results depend on the processing

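The 460 calls of the combination against solvent became 262 by edgeR, 999 by DESeq2, 1703 with the replicate block over all libraries, 1276 with the replicate block within each line, 4475 with the GC slope, 3915 with the replicate block and the GC slope, and 0 from the WT libraries alone. They were 538 without TMM scaling, 453 with DESeq2 size factors, 402 and 488 with pseudocounts of 0.1 and 2 CPM, 460 without a filter (353 shared), 378 at a mean of at least 1 CPM, 611 without APR-246 library 1, and 72 to 374 with 1 library of the comparison left out. Against irradiation, 0 calls became 1 by DESeq2, 30 without a filter and 0 to 47 with 1 library left out. Against APR-246, 85 calls became 11 by edgeR, 211 by DESeq2, 277 and 207 with the blocks, 1741 with the GC slope, 1429 with the block and the slope, 0 from the WT libraries alone, 48 and 109 with the pseudocounts, 134 without a filter, 40 at a mean of at least 1 CPM and 12 to 122 with 1 library left out. For WT minus Null, 6 calls became 1 by edgeR, 46 by DESeq2, 53 with either block, 416 with the GC slope, 443 with the block and the slope, 0 from the WT and Null libraries alone, 1 and 26 with the pseudocounts, 32 without a filter, 8 without TMM scaling and 0 to 10 with 1 library left out. Beyond the sum, 0 calls became 5 without a filter and 0 to 21 with 1 library left out. Of 2019 results for the 113 named genes under these settings, 1578 kept direction and side of the threshold, 391 lost the call, 50 gained one and 0 reversed with a call. The cause was not tested. With 1 library of a group left out, the other was assumed to vary like the remaining groups.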
